A study of Mus musculus with 16 samples.

Results

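The expressed numbered zinc finger genes, the mouse genes with a symbol made of Zfp and a number, were described in splenic memory CD4+ T cells. Of 380 such genes in the tables, 262 had a mean of at least 1 TPM (transcripts scaled to a common total per sample, a level per transcript length) over the 16 samples and were kept, and the other 118 had a median of 0.0862 TPM, with 20 of them at 0 counts in every sample. The members were thus chosen by their mean TPM, so levels are a description and were not tested. At the threshold, Zfp459 (1.07 TPM), Zfp599 (1.04 TPM) and Zfp937 (1.03 TPM) lay just inside, and Zfp93 (0.997 TPM), Zfp965 (0.973 TPM) and Zfp867 (0.958 TPM) just outside.

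RNA-Seq covered 4 groups of 4 samples, HP1α KO, HP1γ KO and the WT of either line. The study states that it used male mice for its sequencing. The mice were sex-matched, of a mixed 129/Sv x C57BL/6 background and between 6 and 12 weeks of age. In the HP1α line, CMV-cre, which is active in every tissue, had removed the floxed sequence and heterozygous mice were then intercrossed to give KO and WT littermates. In the HP1γ line, both alleles were floxed in KO and WT littermates alike and only the KO had Cd4-cre, which is active in the T lineage, so that an effect of Cre and one of losing HP1γ cannot be told apart. Memory cells were sorted as CD4+CD25low/-CD62L-CD44high. The comparisons were KO against WT in each line, the difference between both KO effects, and WT against WT across the lines. The labels do not say that replicates came from separate mice, so p-values measure the spread between these samples.

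Many of these genes encode KRAB zinc finger proteins, the largest family of DNA-binding repressors in mammals. An array of C2H2 fingers reads a DNA sequence, often inside a transposable element, and the KRAB domain binds TRIM28. TRIM28 brings in SETDB1, which trimethylates H3K9, the mark that HP1 proteins bind. KRAB zinc finger genes lie in clusters that arose by tandem duplication, and these clusters are themselves covered by H3K9me3 and HP1 in several cell types. Members without a KRAB domain have other roles, in transcription, mRNA decay, translation or ubiquitination.

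The start of the KRAB box is printed for Zfp992, the member that rose in a knockout, for Zfp993 and Zfp991, which share sequence with it, and for Zfp268, Zfp52 and Zfp781, which had among the smallest p in a knockout comparison, to show how alike the genes on chromosome 4 are. Each sequence is 39 bases of coding DNA on the gene's own strand in GRCm39, and the capitals mark the codon of the conserved tryptophan.
Zfp992, chr4:146548873-146548911 (+): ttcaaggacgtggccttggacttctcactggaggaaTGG
Zfp993, chr4:146740269-146740307 (+): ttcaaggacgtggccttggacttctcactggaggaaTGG
Zfp991, chr4:147261216-147261254 (+): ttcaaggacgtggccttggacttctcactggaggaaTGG
Zfp268, chr4:145347140-145347178 (+): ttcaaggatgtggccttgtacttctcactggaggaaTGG
Zfp52, chr17:21777409-21777447 (+): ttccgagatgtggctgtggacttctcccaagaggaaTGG
Zfp781, chr10:81742377-81742415 (−): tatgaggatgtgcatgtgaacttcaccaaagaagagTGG
The stretch was identical in Zfp992, Zfp993 and Zfp991. Zfp268 differed from these 3 genes at 2 of 39 bases, Zfp52 at 9 and Zfp781 at 16.

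The samples held between 26694045 and 40199637 counts each. In the HP1γ line the targeted gene Cbx3 was at 50.3, 46.3, 45.9 and 47.5 CPM (the share of a sample's counts, TMM-normalized) in the KO samples and 92.5, 90.2, 73.4 and 82.0 CPM in their WT littermates, a log2 fold change of −0.82 ± 0.0790 (SE, edgeR adjusted p = 0.0015). In the HP1α line Cbx5 was at 28.7, 27.7, 23.1 and 29.0 CPM in the KO samples and 37.8, 54.1, 35.7 and 33.8 CPM in their WT littermates, without overlap, and the difference did not pass (log2 fold change −0.58 ± 0.145, edgeR adjusted p = 0.946). Reads from a deleted gene can still be counted where only a part of it is removed. The markers of memory CD4+ T cells summed to between 6436 and 7572 TPM in all samples. The summed B cell markers were at 49.2 to 60.4 TPM in HP1α KO and 40.7 to 42.2 TPM in its WT samples, and the erythroid and platelet markers at 166 to 2410 TPM in HP1γ KO and 84.1 to 1040 TPM in its WT samples.

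A pair of samples stood apart in the members' levels, HP1α WT replicate 2 and HP1γ KO replicate 1. HP1α WT replicate 2 held the highest of the 16 values at 65 of 262 members (24.8%) against 12.6% of the genes with at least 1 TPM. Its level relative to the other 3 HP1α WT samples had a median of 1.33-fold over the KRAB members, 1.04-fold over the members without KRAB and 0.998-fold over the genes with at least 1 TPM. It also held the lowest summed erythroid and platelet markers (33.1 TPM) and the highest Cbx5 (54.1 CPM) of its group, and the part of these values in the members' levels was not tested. HP1γ KO replicate 1 held the highest of the 16 values at 57 members (21.8%, against 11.3% of the genes with at least 1 TPM), and its median deviation over KRAB members was 0.20 on the log2 scale, against 0.30 in HP1α WT replicate 2 and −0.20 to 0.10 in the other samples. Counts at an unadjusted p under 0.05 and KRAB medians of the knockout comparisons are given with and without these samples. So are the medians of the runs of neighbouring members on chromosomes 4, 10 and 17. The tally of all runs is given with all samples.

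The members were expressed at lower levels than other genes, with a median of 7.34 TPM against 17.6 TPM over the 13202 genes with at least 1 TPM. Only 18 members were above 50 TPM and 104 were below 5 TPM. A KRAB domain was found in the coding sequence of 139 members (53.1%), against 1.85% of 21417 translated genes, and was not found in 121. The other 2 members, Zfp125 and Zfp783, are pseudogenes without a protein in the annotation. The KRAB members had a median of 4.44 TPM and 12 C2H2 fingers (from 2 to 33, the most in Zfp619). The members without KRAB had a median of 16.9 TPM and 7 fingers (from 0 to 36, the most in Zfp142).

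**Figure D1:**
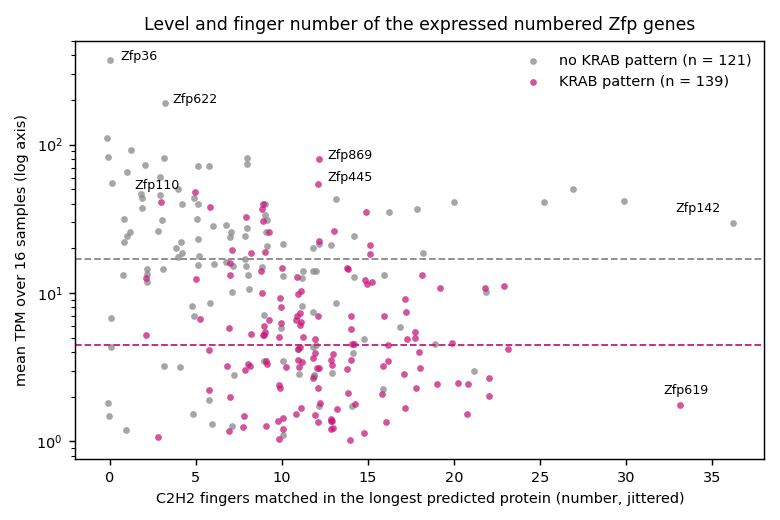
Number of C2H2 fingers in the longest protein (x axis) against the mean TPM over 16 samples (y axis, log scale) for each member with a protein, with KRAB members in pink, members without KRAB in grey and dashed lines at both medians. The KRAB members lie lower (median 4.44 TPM) and carry more fingers (median 12) than the members without KRAB (median 16.9 TPM and 7 fingers).

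KRAB members lay close to each other on the chromosomes. Another member lay within 1 Mb of 118 of the 139 KRAB members (84.9%) and of 60 of the 121 members without KRAB (49.6%). Chromosome 7 held 67 members and chromosome 17 held 32, and 20 runs of at least 4 members with gaps of up to 1 Mb were found. At least 150 nt of 98% identity with another gene was found in 46 KRAB members (33.1%) and in 14 members without KRAB (11.6%), so that reads of these genes could be split between copies. The SD of log2 CPM over the 16 samples had a median of 0.311 in KRAB members, 0.204 in members without KRAB and 0.205 over all genes with at least 1 TPM. These sets were not matched for level, and the KRAB members had the lower median TPM (4.44, against 16.9 without KRAB). The samples that stood apart were included, so the spread is not shown to be a trait of KRAB members.

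At the top of the range stood Zfp36, which encodes tristetraprolin, a protein with CCCH fingers that binds AU-rich elements and promotes mRNA decay. It was at 248 TPM in the lowest, 386 in the median and 463 in the highest sample. Zfp622, a factor in the maturation of the large ribosomal subunit, followed at 143, 200 and 238 TPM. Neither has a KRAB domain. Zfp706 was at 92.8, 110 and 129 TPM. Zfp207, a spindle protein that binds BUB3, was at 77.0, 93.3 and 106 TPM. Zfp703, a transcriptional cofactor, was at 52.6, 81.1 and 108 TPM, and Zfp384, which binds DNA, at 71.7, 81.7 and 89.8 TPM. From Zfp706 on, the ranges of neighbours in this order overlapped. The highest KRAB members were Zfp869 (80.3 TPM), Zfp445 (53.9 TPM) and Zfp110 (47.7 TPM).

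Among RNA-binding members, Zfp106 ranged from 67.4 to 93.7 TPM and Zfp638, which takes part in the silencing of unintegrated retroviral DNA, from 33.9 to 59.2 TPM. The ubiquitin ligase Zfp91 ranged from 53.1 to 89.8 TPM. Regulators of transcription without KRAB were all measured: Zfp335, which is needed for the maturation of T cells, ranged from 34.4 to 49.9 TPM, Zfp148 from 44.5 to 58.7 TPM, Zfp131 from 30.5 to 48.9 TPM, Zfp281 from 21.7 to 54.0 TPM and Zfp292 from 19.1 to 27.9 TPM. Zfp143, an activator bound at promoters, ranged from 9.71 to 21.3 TPM, and Zfp318, known for the control of IgD expression in B cells, from 10.8 to 19.5 TPM. Zfp281 had the widest range of these genes relative to its level.

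KRAB proteins with a known target in repeats or imprinted genes were also measured. Zfp445, a keeper of imprints, ranged from 35.1 to 63.2 TPM. Zfp809, which silences retroviruses with TRIM28, ranged from 16.3 to 23.1 TPM, and Zfp932, a repressor of endogenous retroviruses, from 8.34 to 18.6 TPM. Zfp961 ranged from 8.08 to 14.8 TPM, Zfp568, a repressor of a placental Igf2 transcript, from 4.26 to 7.71 TPM and Zfp69 from 2.30 to 4.26 TPM. Zfp57, Zfp708 and Zfp30 were below the threshold. The most variable members over the 16 samples were Zfp781 (SD of log2 CPM 1.01), Zfp82 (0.820) and Zfp991 (0.757), all with KRAB, and the least variable were Zfp592 (0.0691), Zfp384 (0.0707) and Zfp317 (0.0729).

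The first comparison asked which members changed in memory cells without HP1γ. One member rose, Zfp992, and none fell at an adjusted p under 0.05 in edgeR's quasi-likelihood test, which is 1 of 262 (0.382%) higher beside 0.254% higher and 0.0735% lower among the 14975 genes tested. Below that threshold the members leaned to higher values: 26 of 262 (9.92%) had an unadjusted p under 0.05 and were higher in HP1γ KO, against 6.34% of all genes tested, and 2 (0.763%) were lower, against 5.57%. Of the 26, 20 were KRAB members, which is 14.4% of the 139, and 5 were members without KRAB. KO and WT values did not overlap at 20 members that were higher (7.63%, against 3.21% of all genes tested) and at 2 that were lower (0.763%, against 3.89%). When any 1 of the 8 samples was omitted, 21 to 31 members (8.02% to 11.8%) were higher at an unadjusted p under 0.05, beside 4.43% to 7.69% of all genes tested. Without HP1γ KO replicate 1 these were 22 members (8.40%, beside 4.43%), 15 of them with KRAB, and the values did not overlap at 23 members that were higher (8.78%, beside 4.14%) and 5 that were lower (1.91%, beside 5.17%).

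Zfp992 is a KRAB gene with 11 fingers (ENSMUSG00000070605, chr4:146533480-146554749, + strand, GRCm39). It was at 8.76, 6.43, 10.3 and 11.6 CPM in HP1γ KO and at 3.24, 3.01, 4.07 and 2.58 CPM in the WT littermates. Every KO sample was above every WT sample. The means were 9.25 ± 2.20 and 3.23 ± 0.626 CPM (SD, n = 4), a 2.87-fold difference, and the log2 fold change was 1.53 ± 0.206 (SE, edgeR adjusted p = 0.0107). Over the alternatives the adjusted p ran from 6.67e-10 to 0.0494, and it was 0.0380 without HP1γ KO replicate 1 (edgeR, log2 fold change 1.55). In the HP1α line the gene was at 3.90, 2.77, 2.71 and 2.91 CPM in KO and at 2.22, 5.09, 2.83 and 3.51 CPM in WT samples, which overlapped.

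Zfp992 shares sequence with 4 other genes, among them Zfp991 and Zfp993, so the reads of these genes could be exchanged. The summed level of Zfp991, Zfp992 and Zfp993 was 18.6, 16.5, 20.02 and 23.2 CPM in HP1γ KO and 10.4, 8.54, 11.8 and 7.54 CPM in its WT samples, again without overlap. Of the other genes that share sequence, Gm13236 had no counts in any sample and the pseudogene Znf41-ps was at 12.9, 8.21, 10.9 and 8.52 CPM in HP1γ KO and at 9.89, 7.90, 5.47 and 7.05 CPM in WT samples, which overlapped. Zfp993 itself was at 2.96, 2.28, 2.97 and 3.49 CPM in KO and at 2.14, 0.892, 1.34 and 1.09 CPM in WT samples. Its log2 fold change of 1.11 did not pass (edgeR adjusted p = 0.201). For Zfp991 the values were 6.86, 7.83, 6.79 and 8.16 CPM in KO and 4.99, 4.64, 6.38 and 3.86 CPM in WT samples, with a log2 fold change of 0.59 that did not pass (edgeR adjusted p = 0.247).

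**Figure D2:**
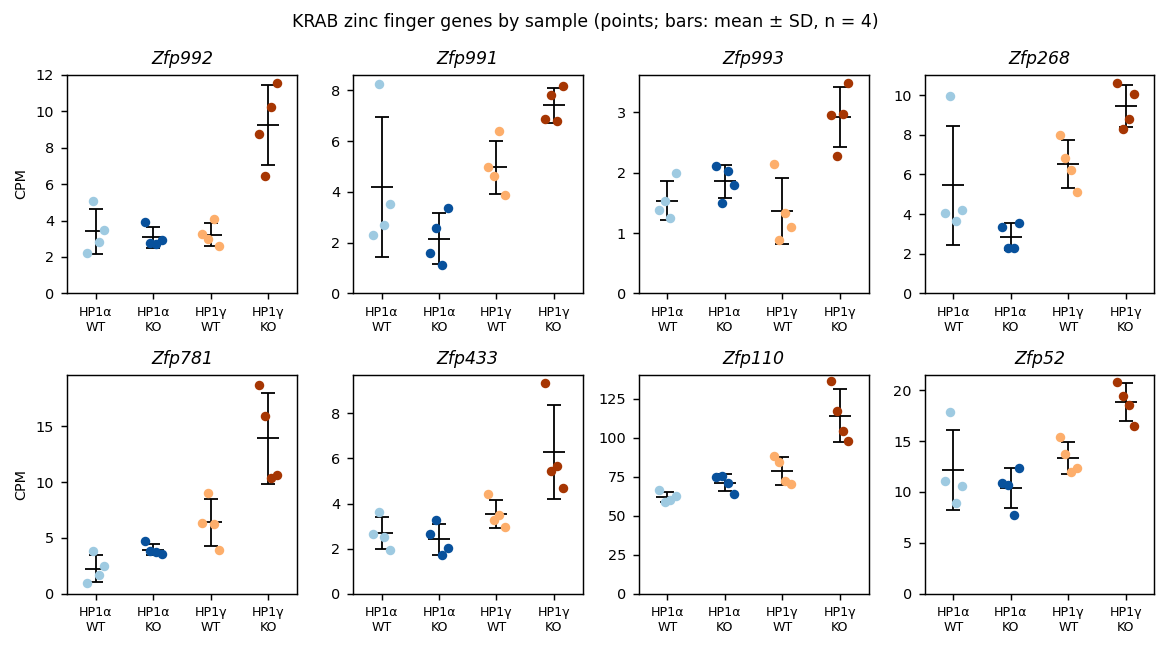
CPM after TMM normalization (y axis, linear) of 8 KRAB members in the 4 groups (x axis), with 1 point per sample and bars at the mean ± SD of 4 samples. Zfp992 separates HP1γ KO (6.43 to 11.6 CPM) from HP1γ WT (2.58 to 4.07 CPM), and at Zfp268 and Zfp991 a single HP1α WT sample, replicate 2, stands above the other 3.

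After Zfp992, the members with the smallest p in the HP1γ line did not pass the adjusted threshold. Zfp110, a KRAB protein known as an interactor of the p75 neurotrophin receptor, was at 136, 117, 104 and 97.8 CPM in KO and at 87.9, 84.3, 72.3 and 70.03 CPM in WT samples. Its groups did not overlap, and the log2 fold change was 0.54 ± 0.113 (SE, edgeR adjusted p = 0.112). Zfp52 was at 20.9, 19.5, 18.5 and 16.5 CPM in KO and at 15.4, 13.8, 11.9 and 12.4 CPM in WT samples (log2 fold change 0.50, edgeR adjusted p = 0.120). In Zfp781 the values were 18.7, 15.9, 10.4 and 10.7 CPM against 6.35, 8.997, 6.26 and 3.92 CPM (log2 fold change 1.13, edgeR adjusted p = 0.164). Zfp839, without KRAB and without a C2H2 finger that matched the pattern, was at 7.85, 9.26, 11.6 and 11.4 CPM against 5.25, 6.19, 7.08 and 6.90 CPM (log2 fold change 0.67, edgeR adjusted p = 0.164). All 4 were higher in every KO sample than in any WT sample. DESeq2, the alternative count test, called 8 members higher (3.05%) and none lower: Zfp110, Zfp112, Zfp433, Zfp52, Zfp781, Zfp839, Zfp992 and Zfp993. It called 0.937% of the 27308 genes it tested in either direction. DESeq2 was run without a filter on low counts, so its genes include low ones that edgeR left out. All members had a mean of at least 1 TPM, so both shares are over unlike sets.

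The fitted log2 fold change had a median of 0.12 over the KRAB members of the HP1γ line, 0.01 over the members without KRAB and 0.00 over all genes tested. It was above 0 at 104 of the 139 KRAB members and at 50.1% of all genes tested. Without HP1γ KO replicate 1, the KRAB median was 0.07, with 93 of the 139 above 0. Among members with a known role the log2 fold change was 0.03 at Zfp36, 0.01 at Zfp809, 0.02 at Zfp568 and 0.02 at Zfp143, none of which passed, and 0.26 at Zfp445 (edgeR adjusted p = 0.304). The largest changes among the others of that list were 0.29 at Zfp281, 0.27 at Zfp932, 0.17 at Zfp69 and −0.17 at Zfp961. None of these passed either, and Zfp961 was lower in every KO sample than in any WT sample.

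**Figure D3:**
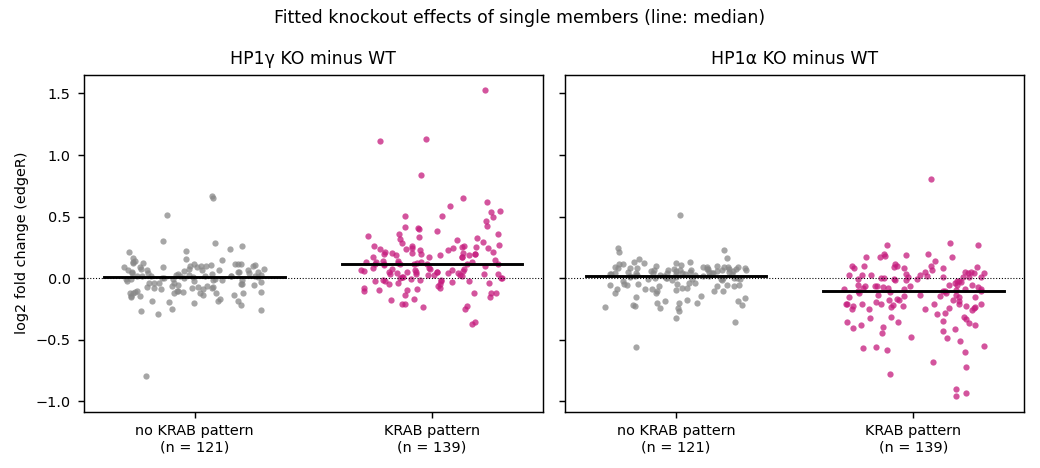
Fitted log2 fold change of KO over WT (y axis) for KRAB members and members without KRAB (x axis), in the HP1γ line and the HP1α line, with 1 point per member and a line at each median. The KRAB median is 0.12 in the HP1γ line and −0.10 in the HP1α line, where it is 0.01 without HP1α WT replicate 2.

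The same question was asked of HP1α. No member passed the adjusted threshold in HP1α KO, and neither did any of the 14881 genes tested in edgeR (0.0% higher and 0.0% lower), nor did DESeq2 call a member, beside 0.0185% of the genes it tested. At an unadjusted p under 0.05, 3 members (1.15%) were higher and 8 (3.05%) lower, beside 1.67% and 2.59% of all genes tested. KO and WT values did not overlap at 1 member that was higher (0.382%, beside 1.53% of genes) and 6 that were lower (2.29%, beside 1.43% of genes). Without HP1α WT replicate 2, 3 members (1.15%, beside 1.10%) were higher and 1 (0.382%, beside 1.40%) lower at an unadjusted p under 0.05, and the values did not overlap at 3 that were higher (1.15%, beside 2.19%) and 7 that were lower (2.67%, beside 2.04%).

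Zfp628, a member without KRAB, had the smallest p in this line. It was at 82.1, 85.3, 80.1 and 84.0 CPM in HP1α KO and at 73.3, 64.3, 67.6 and 74.7 CPM in its WT samples, without overlap, and the log2 fold change of 0.24 ± 0.0623 (SE) did not pass (edgeR adjusted p = 0.946). Zfp292, also without KRAB, was at 136, 133, 129 and 131 CPM in KO and at 139, 168, 149 and 151 CPM in WT samples (log2 fold change −0.20, edgeR adjusted p = 0.946). Zfp788, a KRAB member, was at 9.56, 11.1, 9.18 and 10.8 CPM in KO and at 14.2, 16.4, 11.2 and 11.1 CPM in WT samples, and its groups overlapped (log2 fold change −0.38, edgeR adjusted p = 0.946). Zfp110 had a log2 fold change of 0.20 (edgeR adjusted p = 0.946). Without HP1α WT replicate 2 the log2 fold changes were 0.21 at Zfp628, −0.15 at Zfp292, −0.26 at Zfp788 and 0.17 at Zfp110. The B cell markers, which did not overlap between these groups either, moved beside these values and their part was not tested.

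Zfp268 showed how 1 sample bore on the HP1α comparison. It was at 3.35, 2.29, 2.30 and 3.53 CPM in HP1α KO and at 4.06, 9.95, 3.64 and 4.20 CPM in WT samples. The groups did not overlap, but replicate 2 alone was above 5 CPM. The log2 fold change was −0.93 ± 0.330 (SE, edgeR adjusted p = 0.946) and −0.47 without that sample. Over all KRAB members of the HP1α line the median log2 fold change was −0.10, with 97 of 139 below 0, and without that sample it was 0.01, with 67 below 0. The count of members lower at an unadjusted p under 0.05 was 27 without HP1α WT replicate 3 (10.3%, beside 3.24% of all genes tested).

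The difference between both KO effects was the interaction term of a fit to the 16 samples. No member passed, beside 0.00634% of the 15776 genes tested in one direction and 0.0444% in the other. At an unadjusted p under 0.05, 34 members (12.98%) had a lower effect in HP1α KO than in HP1γ KO, beside 4.91% of all genes tested, and 2 members, Zfp628 and Zfp652, had a higher one (0.763%, beside 4.67%). KRAB members made up 30 of the 34. Without HP1α WT replicate 2, 16 members (6.11%, beside 4.12%) had a lower effect, and without HP1γ KO replicate 1, 17 (6.49%, beside 3.67%). The median difference over KRAB members was −0.22. It was −0.10 without HP1α WT replicate 2 and −0.18 without HP1γ KO replicate 1.

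The smallest p of the interaction belonged to Zfp992, with a difference of −1.68 ± 0.339 on the log2 scale (SE, edgeR adjusted p = 0.116). Zfp268 followed with −1.46 ± 0.382 (SE, edgeR adjusted p = 0.271), or −0.997 without HP1α WT replicate 2. In the HP1γ line Zfp268 was at 10.6, 8.31, 8.82 and 10.0 CPM in KO and at 8.01, 6.81, 6.20 and 5.14 CPM in WT samples. DESeq2 called both of these genes, beside 0.260% of the 29248 genes it tested, again without a filter on low counts. Zfp628 (0.27, edgeR adjusted p = 0.330), Zfp839 (−0.72, edgeR adjusted p = 0.337) and Zfp788 (−0.60, edgeR adjusted p = 0.384) did not pass.

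Of the 20 runs of neighbouring members, 16 had a median log2 fold change above 0 in HP1γ KO and 4 below 0, 12 of the medians lay within 0.1 of 0, and in 3 runs all members were above 0. This tally is with all samples. Some medians near 0 changed sign without HP1γ KO replicate 1, as in the run on chromosome 13 (from 0.04 to −0.09). On chromosome 4 a run of 5 KRAB members (chr4:146533480-147932882, GRCm39: Zfp992, Zfp993, Zfp991, Zfp984 and Zfp933) had a median log2 fold change of 0.59 in HP1γ KO, with 4 of 5 above 0. Zfp992 was at 1.53, and Zfp993 and Zfp991, which share sequence with it, at 1.11 and 0.59. Zfp984 and Zfp933 were near 0 (0.03 and −0.02). On chromosome 10 a run of 4 KRAB members (chr10:81540659-82077164: Zfp433, Zfp781, Zfp873 and Zfp938) had a median of 0.60, with all 4 above 0. The largest run, 17 members on chromosome 17 of which 15 carry KRAB (chr17:21229165-23783215), had a median of 0.19, with 13 above 0. Of these 26 genes only Zfp992 passed the adjusted threshold. Without HP1γ KO replicate 1 the medians were 0.62 on chromosome 4, 0.45 on chromosome 10 and 0.09 on chromosome 17. These 3 runs were picked after their values were seen, so no test was run on them. Zfp433 was at 9.33, 5.45, 5.68 and 4.70 CPM in HP1γ KO and at 4.41, 3.26, 3.49 and 2.95 CPM in WT samples (log2 fold change 0.84, edgeR adjusted p = 0.226), and it and Zfp781 each share sequence with 2 genes.

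HP1α WT replicate 2 was high along the chromosome 17 run. It was the highest sample of the HP1α line at 16 of the 17 members, with a median of 1.82-fold over the other 3 WT samples (from 1.12-fold at Zfp213 to 3.19-fold at Zfp758). Zfp942 was at 11.1, 29.1, 9.99 and 10.5 CPM in HP1α WT and at 9.96, 10.1, 7.68 and 10.2 CPM in HP1α KO. In the HP1γ line the same gene was at 24.4, 20.9, 15.6 and 15.7 CPM in WT and at 28.7, 22.6, 21.9 and 18.3 CPM in KO, so that replicate 2 was near the level of that line and the other 3 samples below it. Replicate 2 was also the highest HP1α sample at Zfp758, which was at 3.03, 9.85, 3.42 and 2.81 CPM in WT and at 3.75, 2.29, 2.15 and 2.99 CPM in KO samples. The median log2 fold change of HP1α KO over WT in this run was −0.48, and −0.10 without replicate 2. The runs on chromosomes 4 and 10 had medians of −0.29 and −0.18, and of −0.04 and 0.03 without it.

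**Figure D4:**
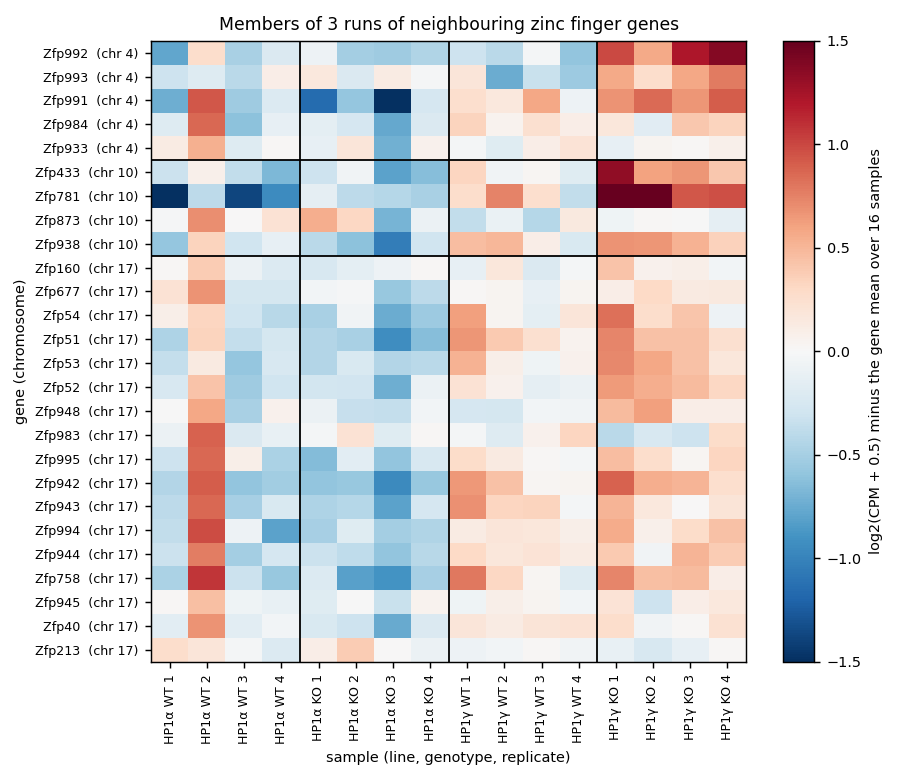
Members of the runs on chromosomes 4, 10 and 17 (rows, in chromosome order) in the 16 samples (columns, by group), coloured by log2(CPM + 0.5) minus the mean of each gene, with colours clipped at ±1.5. HP1α WT replicate 2 forms a high column in the chromosome 17 run, where it is the highest of its line at 16 of 17 members, and the 4 HP1γ KO samples are the highest by their median in the chromosome 10 run.

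Sequence upstream of start sites was examined because genes of the chromosome 17 run moved together across samples. In that run the divergent pairs Zfp942 and Zfp943, and Zfp944 and Zfp758, start close to each other, and the whole stretch between both starts is printed (RefSeq, GRCm38.p6, minus strand). The capitals mark CACGTG, an E-box, and CCGGAA, an ETS core.
Zfp942 to Zfp943, chr17:21962465-21962558, 94 bases: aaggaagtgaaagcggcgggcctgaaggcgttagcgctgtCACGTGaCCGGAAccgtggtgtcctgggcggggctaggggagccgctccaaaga
Zfp944 to Zfp758, chr17:22361401-22361462, 62 bases: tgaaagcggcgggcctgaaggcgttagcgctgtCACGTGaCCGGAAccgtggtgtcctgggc
The upstream windows of Zfp942 and Zfp944 were identical at 224 of 225 bases, so the 4 genes start from copies of one sequence. In HP1α WT, Zfp943 was at 4.69, 11.8, 4.30 and 5.31 CPM and Zfp944 at 5.41, 12.1, 4.67 and 5.72 CPM, and replicate 2 was again the high sample.

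The ETS core CCGGAA stood, on either strand, within 250 bases before the start of 10 of the 15 members of this run with a window (66.7%), of 35.3% of the 218 members with a window and of 13.6% of 27025 genes. CACGTG was found in 5 of the 15 (33.3%), in 7.34% of the members and in 6.86% of all genes. CCAAT was found in 56.1% of the 123 KRAB members with a window, 45.7% of the 94 members without KRAB and 37.5% of all genes. GGGCGG, the core of a GC box, showed the other order, with 35.8% of the KRAB members, 59.6% of the members without KRAB and 35.4% of all genes. Windows of copied genes are not independent, and a match is not a binding site.

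The last comparison set the WT littermates of both lines against each other, to measure how far the members differed between lines without a knockout. In HP1α WT, 8 members were higher and 23 lower than in HP1γ WT at an adjusted p under 0.05 in edgeR, or 3.05% and 8.78%, beside 4.55% and 8.25% of the 14804 genes tested. The shares of members were thus near those of all genes. The median log2 fold change was 0.04 over the KRAB members, with 75 of 139 above 0, beside 0.02 over all genes tested. Without HP1α WT replicate 2 it was −0.10 over the KRAB members, with 56 above 0, beside 0.01 over all genes tested. KRAB members made up 4 of the 8 and 11 of the 23. The values did not overlap at 20 members that were higher and 28 that were lower (7.63% and 10.7%, beside 8.81% and 10.7% of genes). These samples are also the controls of the KO comparisons, and line, the state of the floxed allele, mice and handling cannot be told apart.

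Zfp287, a KRAB gene with 14 fingers on chromosome 11, had the smallest p. It was at 33.8, 32.3, 28.03 and 27.2 CPM in HP1α WT and at 14.3, 13.8, 17.96 and 18.3 CPM in HP1γ WT, a 1.89-fold difference (log2 fold change 0.92 ± 0.117, SE, edgeR adjusted p = 0.00259). The KO samples followed their lines, at 34.1, 34.5, 26.9 and 31.8 CPM in HP1α KO and at 12.6, 12.4, 16.9 and 16.99 CPM in HP1γ KO. Zfp82, a KRAB gene on chromosome 7, was at 4.88, 5.37, 2.75 and 4.07 CPM in HP1α WT and at 1.65, 1.38, 1.88 and 2.13 CPM in HP1γ WT, 2.42-fold higher (log2 fold change 1.28, edgeR adjusted p = 0.0096). Zfp7 was at 16.9, 17.5, 13.8 and 13.01 CPM against 8.82, 8.49, 9.48 and 11.3 CPM (log2 fold change 0.68, edgeR adjusted p = 0.0111). In these 3 genes all HP1α WT samples were above all HP1γ WT samples.

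Higher in HP1γ WT was Zfp703, at 110, 93.1, 124 and 117 CPM in HP1α WT and at 199, 167, 171 and 191 CPM in HP1γ WT (log2 fold change −0.72 ± 0.0976, SE, edgeR adjusted p = 0.00316). The KRAB gene Zfp267 was at 11.3, 9.32, 9.59 and 7.01 CPM against 20.03, 17.99, 15.7 and 16.96 CPM (log2 fold change −0.93, edgeR adjusted p = 0.00463). Zfp472, also with KRAB, was at 21.5, 21.8, 25.9 and 19.96 CPM against 44.0, 46.6, 34.0 and 33.0 CPM (log2 fold change −0.82, edgeR adjusted p = 0.00524). None of these 3 genes overlapped between the groups. Zfp319 was at 56.9, 52.9, 49.0 and 53.9 CPM against 78.9, 81.6, 70.1 and 67.7 CPM (log2 fold change −0.49, edgeR adjusted p = 0.00634). Zfp748 was at 6.34, 7.13, 7.24 and 7.45 CPM against 18.6, 15.8, 11.8 and 10.5 CPM (log2 fold change −1.01, edgeR adjusted p = 0.00706). Zfp868, Zfp655, Zfp142 and Zfp326, the last a factor in splicing and elongation, had log2 fold changes of −0.64, −0.65, −0.44 and −0.54.

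**Figure D5:**
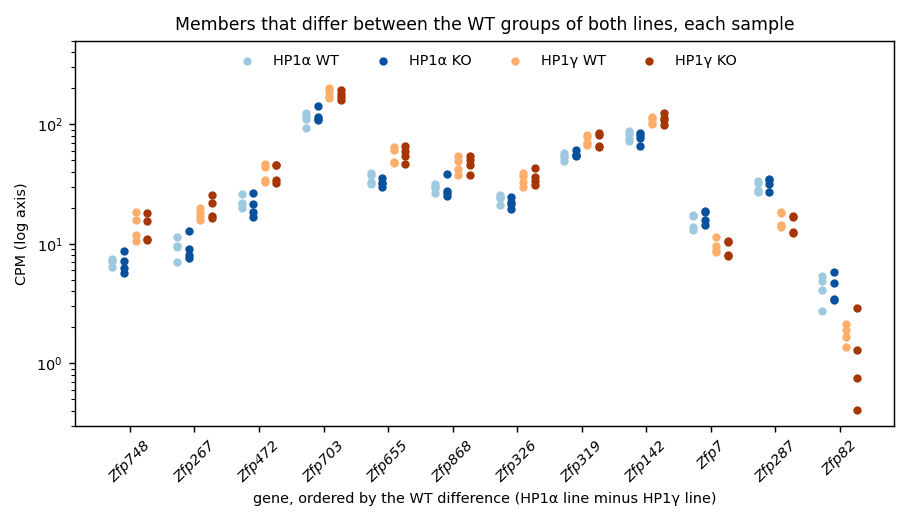
CPM after TMM normalization (y axis, log scale) of the 12 members with the smallest p between the WT groups (x axis, ordered by their WT difference), with 1 point per sample in 4 groups. KO samples lie with the WT samples of their own line, as at Zfp287, where the HP1α line spans 26.9 to 34.5 CPM and the HP1γ line 12.4 to 18.3 CPM.

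The KO samples, which this test did not use, were set beside these calls. The mean of HP1α KO differed from that of HP1γ KO in the same direction at 30 of the 31 members, and at 26 of them the KO values did not overlap. The exception was Zfp839, at 11.2, 11.2, 9.26 and 8.66 CPM in HP1α WT, where the HP1γ KO samples reached the level of the HP1α line. These counts were not set beside all genes called between the WT groups, so they do not set the members apart. With an adjusted p under 0.05 and a log2 fold change beyond 1 in size, Zfp82 was higher (1 member, 0.382%, beside 0.317% of genes) and Zfp748 and Zfp781 were lower in HP1α WT (2 members, 0.763%, beside 1.59% of genes). Zfp781 was at 1.00, 3.83, 1.69 and 2.46 CPM in HP1α WT and at 4.68, 3.85, 3.74 and 3.55 CPM in HP1α KO, below every HP1γ WT sample apart from the 3.92 CPM of replicate 4.

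Among members with a known role, Zfp143 (log2 fold change 0.56, edgeR adjusted p = 0.0239) and Zfp568 (0.44, edgeR adjusted p = 0.0468) were higher in HP1α WT. Zfp91 (−0.36, edgeR adjusted p = 0.0281), Zfp281 (−0.46, edgeR adjusted p = 0.0484) and Zfp622 (−0.32, edgeR adjusted p = 0.0377) were lower. The differences at Zfp36 (0.37, edgeR adjusted p = 0.120), Zfp445 (0.24, edgeR adjusted p = 0.116) and Zfp809 (−0.24, edgeR adjusted p = 0.0765) did not pass.

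The proteins that act with KRAB zinc fingers were described from a list of 32 genes, of which 30 were tested. In HP1γ KO none was higher and 1, Cbx3, was lower at the adjusted threshold. At an unadjusted p under 0.05 there were 6, beside 6.34% higher and 5.57% lower of all genes tested. Cbx3 and Sumo2 were lower, and Atrx, Ehmt1, Morc2a and Zfp445 were higher. In HP1α KO none passed, with Cbx5 the only one at an unadjusted p under 0.05, beside 1.67% higher and 2.59% lower of all genes. Trim28, the partner of the KRAB domain, differed by −0.05 and 0.01 on the log2 scale in HP1γ KO and HP1α KO, with 210 ± 8.40 and 221 ± 10.9 CPM in the KO groups (SD, n = 4). Between the WT groups, 5 of 30 genes were higher in HP1α WT: the H3K9 methyltransferase Setdb1 (log2 fold change 0.36, edgeR adjusted p = 0.0214), its cofactor Atf7ip (0.39, adjusted p = 0.0358), Cbx1, which encodes HP1β (0.41, adjusted p = 0.0199), Morc3 (0.40, adjusted p = 0.0446) and the DNA methyltransferase Dnmt1 (0.32, adjusted p = 0.0415). The methyltransferase Suv39h2 (−0.98, edgeR adjusted p = 0.00655) and Resf1, a factor in the silencing of retroelements (−0.59, adjusted p = 0.0175), were lower. Of the 14804 genes tested in this comparison, 4.55% were higher and 8.25% lower. The median over the list was 0.12 in this comparison, −0.01 in HP1γ KO and −0.04 in HP1α KO, beside medians of 0.02, 0.00 and 0.00 over all genes tested.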

How the data were processed

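RNA-Seq of 16 samples was analysed, 4 in each of 4 groups, mapped by the titles and genotypes in the labels. A treatment label that did not match the memory cell experiment was not used. Trimmed reads had been aligned by the authors to GRCm39 (STAR), with genes quantified in Salmon, and the authors deposited estimated counts per gene without normalization (11.6% are not whole numbers). The authors also deposited TPM, which are scaled per sample and keep no depth. The library kit was stranded.

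Estimated counts were rounded and tested with edgeR 4.0.16 in R 4.3.3 (filterByExpr with a minimum count of 10, TMM, glmQLFit and glmQLFTest, Benjamini-Hochberg adjustment over all genes tested). KO and WT were compared in fits of 8 samples, the WT groups in a fit of 8, and the interaction in a fit of 16. All 262 members were tested in each comparison, and 1 member had fewer than 10 counts in a sample. Totals of 26694045 to 40199637 counts put 3 counts at 0.0746 to 0.112 CPM, for counting error only. CPM are TMM-normalized over the 16 samples. TPM were used for levels between genes. The smallest chi-square per gene between replicates of a group was 10.4 over 24 pairs, and none was counted as 1 library.

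KRAB domains and C2H2 fingers were searched in coding sequence translated from GENCODE vM39 (GRCm39), in which 56017 genes were found, in place of the RefSeq proteins that had been planned. The KRAB pattern used was widened after a narrower one (109 members) was seen to miss known KRAB genes. A pattern can miss a divergent domain. Shared sequence was found with blastn 2.17.0 between transcripts. Promoter windows are RefSeq's and 218 members matched.

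The members, gene lists and tests were chosen with earlier results of these data known. Named members are those with an adjusted p under 0.05 (up to 12 by p) or the 5 with the smallest p in each comparison, the 6 highest in TPM, 3 on either side of the threshold, a list with known roles, and the 3 with the highest and lowest spread. Others, such as Zfp433, Zfp993, Zfp869 and the genes of the chromosome 17 run, were named after their values were seen. On simulated counts for the HP1γ comparison (14699 genes, 200 changed), edgeR recovered 72.8% of the genes changed 2-fold and 90.7% of those changed 4-fold, and 6.32% of its calls were unchanged genes. Alternatives were DESeq2 1.42.0, the replicate number as a block, other filters, a joint fit, limma 3.58.1 on log2(TPM + 1) and log2(TPM + 0.1), a threshold of 2 TPM, KRAB members alone and the omission of each sample.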

Additional observations from a re-analysis of the deposited data

Results flagged for a closer look

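Among 264 values looked at (66 in each of the 4 groups), 14 had 1 sample far from the other 3 by Dixon's criterion, which chance gives in about 1 of 20. The part of marker sums or of handling in these values was not tested.

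HP1α WT replicate 2 was the high sample 3 times. Zfp268 was at 9.95 CPM there and at 3.64 to 4.20 CPM in the other HP1α WT samples. Zfp932 was at 15.4 CPM against 7.27 to 8.13 CPM. The median deviation over the chromosome 17 run that starts at 21229165 was 0.67 on the log2 scale against −0.30 to −0.24. Over all 262 members, 24 (9.16%) had such a sample in HP1α WT, which was replicate 2 in 18. In HP1α KO, HP1γ KO and HP1γ WT the shares were 6.11%, 3.82% and 4.96%. Genes other than members were not examined in this way, so these shares do not set the members apart.

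HP1α KO replicate 3 was low in the same chromosome 17 run, at −0.59 against −0.27 to −0.22, and in the run on chromosome 7 that starts at 41282627, at −0.40 against −0.18 to −0.14. HP1α KO replicate 1 was high at Zfp992, at 3.90 CPM against 2.71 to 2.91 CPM, and at Zfp319, at 60.96 CPM against 54.4 to 55.3 CPM. HP1α KO replicate 4 was low at Zfp317, at 38.6 CPM against 42.4 to 43.1 CPM. In HP1α WT, replicate 3 was low at Zfp106, at 186 CPM against 216 to 221 CPM, and replicate 1 was low at Zfp809, at 15.03 CPM against 15.9 to 16.1 CPM.

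In the HP1γ line, Zfp788 was at 17.5 CPM in KO replicate 1 against 12.7 to 13.5 CPM in the other KO samples. Zfp809 was at 16.9 CPM in KO replicate 4 against 19.2 to 19.3 CPM. HP1γ WT replicate 4 had a median deviation of −0.044 over the KRAB members against 0.036 to 0.043 in the other 3, and of −0.074 over the chromosome 17 run that starts at 32984470, against 0.10 to 0.13.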

How the results depend on the processing

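No member named for its small p in a comparison changed direction in that comparison under any alternative. This does not extend to the other named members, some of which had changes near 0. Medians near 0 changed sign. With a sample left out, the HP1α median over members ran from −0.08 to 0.02 and the median between the WT groups from −0.02 to 0.07. The HP1α median over KRAB members went from −0.10 to 0.01 without HP1α WT replicate 2. In the HP1γ line, 1 member was higher, and the count was 8 with DESeq2, 2 with all 16 samples in one fit, 4 with the replicate block, 0 at a threshold of 2 TPM, where Zfp992 is no member, and 0 among members without shared sequence. Of all genes tested there, 0.327% were called in either direction, and 0.937% with DESeq2, 0.609% with all 16 samples and 0.401% with the block. The median over members (0.05) was 0.10 and 0.11 with limma on log2(TPM + 1) and log2(TPM + 0.1), where the median of all genes was 0.06 and 0.07, and 0.084 and 0.12 over KRAB members by the narrower and the wider pattern. Between the WT groups, 8 members were higher, and 26 with DESeq2, 20 with all 16 samples, 1 with the replicate block, 3 and 4 with limma, 1 with both DEG criteria, and 3 and 4 over KRAB members. Leaving out a sample gave 3 to 19 (3 without HP1α WT replicate 1, 4 without HP1α WT replicate 2 and without HP1γ WT replicates 1 or 2, 16 without HP1α WT replicate 3 and 19 without HP1γ WT replicate 4). Lower were 23, and 12 with the replicate block, 15 and 15 with limma, 2 with both DEG criteria, 9 and 11 over KRAB members, and 11 to 25 with a sample left out (11 and 14 without HP1α WT replicates 1 and 4, 12 without HP1γ WT replicates 1 or 2). The share of higher calls was 25.8%, and 44.1% with DESeq2, 34.4% without a filter, 43.5% with all 16 samples, 7.69% with the block and 16.7% and 21.1% with limma. Between the WT groups, 12.8% of all genes tested were called in either direction. This share was 10.4% with DESeq2, 6.50% without a filter, 16.1% with all 16 samples, 3.90% with the block and 7.94% and 8.17% with limma. For the fits with a sample left out, the share of all genes was not set beside the counts of members. The range of those counts does not set the members apart. The interaction called 2 members with DESeq2, and its median of −0.09 was −0.17 and −0.22 over KRAB members and −0.11 to −0.032 with a sample left out. The cause of these changes was not tested.

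Replicate numbers come from titles, and same-numbered samples correlated between 0.00286 and 0.153 in the HP1γ line, 0.094 and 0.228 in the HP1α line and −0.204 and −0.0654 between the WT groups, and not every pair was over 0.1, so the numbers were not taken as pairs. Of 8 samples, 2 correlated best with their own number in the HP1γ line, 6 in the HP1α line and 0 between the WT groups, a hint from the data and not from the design. On the first principal component replicates 1 and 2 lay farther from 0 than 3 and 4 in all 4 groups, for which the labels give no batch. The replicate block shared 12 of its 13 WT calls with the 31 of the fit without it. The wider KRAB pattern, the restriction to members without shared sequence and the unadjusted counts with a sample omitted were chosen after seeing the data. Low levels limit single members: 104 were below 5 TPM.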
